A study of Mus musculus with 6 samples.

Results

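The 10 mast cell genes described here are Cpa3, Cma1, Mcpt4 and Tpsb2 (granule proteases), Kit, Fcer1a, Mrgprb2 and Mrgprb3 (receptors), and Hdc and Tph1 (amine synthesis). They were picked by gene symbol from the 34590 symbols of each count file, and all 10 were present and passed the filter on low counts, as 10 of 16691 genes tested. The data are gene counts from skin of C57BL/6 mice, 3 of genotype Tnip1+/+ (wild type) and 3 of genotype Tnip1-/- (knockout). All 6 mice received surface application of imiquimod, an agonist of Toll-like receptor 7, for 2 days, and no untreated skin was analysed here. The comparison asks which mast cell transcripts change in treated skin when Tnip1 is lost, a gene whose protein binds ubiquitin and A20 and dampens NF-kB. Age, sex, the deleted stretch of Tnip1 and the way the knockout was made are not given in the sources used here.

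Mast cells of the skin are resident cells of the dermis that depend on stem cell factor and its receptor KIT. Connective tissue mast cells store chymases, tryptases, carboxypeptidase A3, histamine and, in mice, serotonin in granules bound to heparin. They release the granules when antigen crosslinks IgE on the high-affinity receptor FceRI, or when basic peptides and drugs engage the receptor MRGPRB2. Several of these genes are not private to mast cells: basophils carry FceRI and make histamine, neutrophils can transcribe Hdc, and melanocytes depend on KIT.

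Gene counts per library ran from 19529970 to 31005554, and Tnip1 stood at 28.1, 25.1 and 26.0 CPM in wild type replicates 1, 2 and 3 and at 2.03, 1.57 and 1.83 CPM in knockout replicates 1, 2 and 3 (CPM, the count relative to the library's total after TMM scaling). A gene with 3 counts stands at 0.0900 to 0.157 CPM, which was set as the floor. Lower levels rest on fewer reads and were not resolved. The library names carry different prefixes in the wild type and the knockout libraries, with no meaning stated, so a difference in preparation and the genotype cannot be told apart. Markers of other tissue layers gave the following levels and calls, beside 45.1% of all tested genes called by the test defined in the next paragraph. Summed over each list, 10 fibroblast genes stood at 7089 to 17314 CPM in wild type and 6718 to 7383 CPM in knockout skin (0 higher and 4 lower). The 17314 CPM is wild type replicate 1, and the other wild type libraries had 8562 and 7089 CPM. Without wild type replicate 1 the fold change of Col1a1 turned from -1.11 to 0.84, and Col3a1 passed as higher (0.54, edgeR adjusted p = 0.0455). The 9 skeletal muscle genes stood at 8614 to 15292 CPM in wild type and 2671 to 4455 CPM in knockout skin (9 lower). The 8 adipocyte genes stood at 2104 to 3984 and 99.8 to 1344 CPM (3 lower), where 99.8 CPM is knockout replicate 2 and the other knockout libraries had 1344 and 1166 CPM. The 8 keratinocyte genes stood at 6696 to 11136 CPM in wild type and 19467 to 22370 CPM in knockout skin (4 higher and 1 lower). The part of these shifts in the results below was not tested, and in whole skin fewer cells of a type and less RNA per cell cannot be told apart.

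Of the 10 mast cell genes, 3 rose in knockout skin (Fcer1a, Hdc and Tph1), 2 fell (Mrgprb2 and Mrgprb3) and 5 did not pass the test (the 4 proteases and Kit). A call is an adjusted p under 0.05 by edgeR with Benjamini-Hochberg adjustment over all tested genes, of which 45.1% were called (22.3% higher and 22.7% lower). The share called among the mast cell genes was close to that background, as was the share whose libraries did not overlap between genotypes (5 of 10, against 59.8% of tested genes). By role, 0 of 4 proteases were called, 1 receptor rose and 2 fell of 4, and both amine synthesis genes rose. The median log2 fold change was -0.53 for the 4 proteases, -0.87 for the 4 receptors and 2.08 for the 2 amine synthesis genes, against -0.04 over all tested genes.

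**Figure D1:**
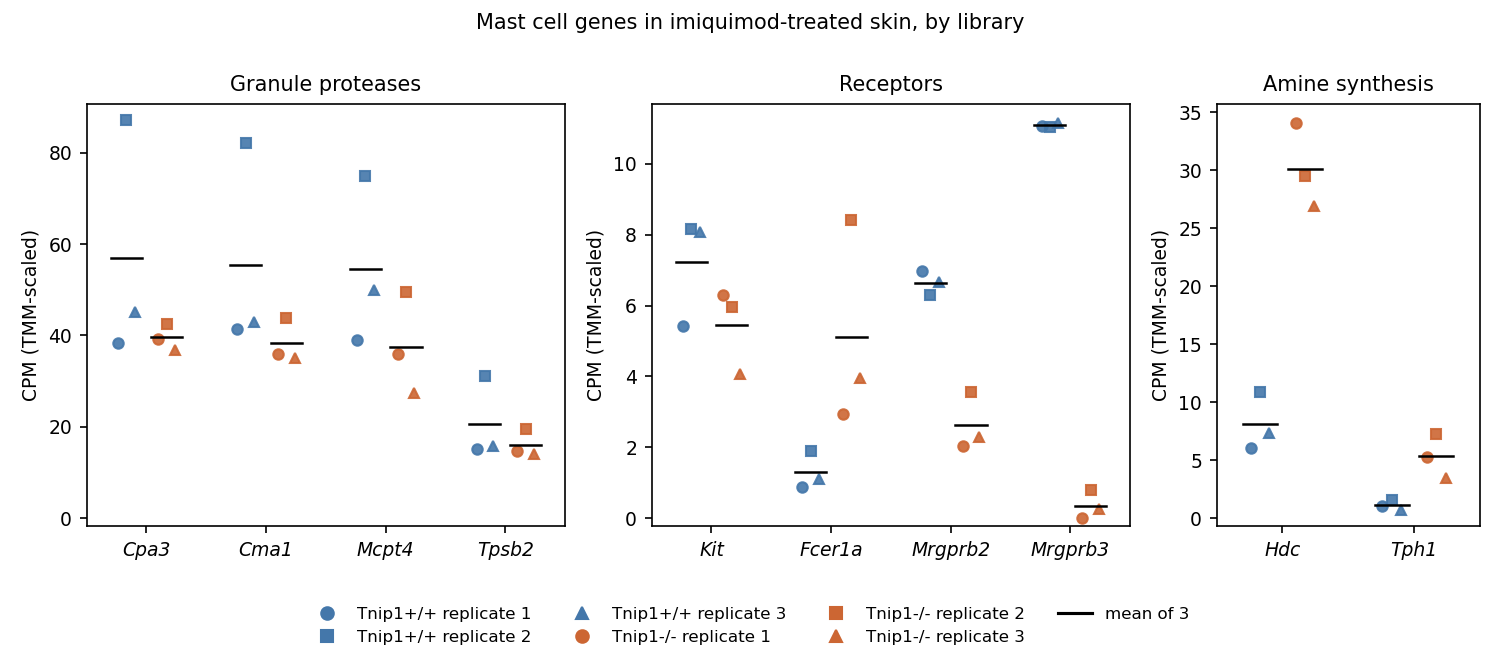
Each point is the level of a gene in a library, in TMM-scaled CPM on a linear axis, with blue for Tnip1+/+, orange for Tnip1-/-, a symbol per replicate number and a black bar for the mean of 3. The protease genes overlap between genotypes, whereas Hdc and Tph1 lie higher, and Mrgprb2 and Mrgprb3 lower, in every knockout library.

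The granule protease genes did not pass the test. Cpa3, which encodes carboxypeptidase A3, a protease common to skin mast cells, stood at 38.3, 87.1 and 45.2 CPM in wild type replicates 1, 2 and 3 and at 39.3, 42.6 and 36.8 CPM in knockout replicates 1, 2 and 3. Wild type replicate 2 was high, and the other 5 libraries lay between 36.8 and 45.2 CPM. The same library also had the highest summed skeletal muscle (15292 CPM) and adipocyte (3984 CPM) levels of the 6, and their part in its protease level was not tested. The log2 fold change, knockout minus wild type, was -0.52 (SE 0.30, 95% interval -1.22 to 0.18, edgeR adjusted p = 0.186). Without wild type replicate 2 it was -0.08.

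Cma1, the gene of the chymase mMCP-5, stood at 41.4, 82.1 and 43.1 CPM in wild type and at 36.0, 43.8 and 35.0 CPM in knockout skin. Its log2 fold change was -0.54 (SE 0.28, interval -1.18 to 0.11, edgeR adjusted p = 0.150), and -0.14 without wild type replicate 2. Mcpt4, the gene of the chymase mMCP-4, had 39.0, 74.9 and 49.9 CPM in wild type and 36.0, 49.4 and 27.3 CPM in knockout skin. The same wild type library was the highest, and the genotypes overlapped for both chymases. Mcpt4 differed by -0.54 (SE 0.29, interval -1.23 to 0.15, edgeR adjusted p = 0.171), and by -0.24 without wild type replicate 2.

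Tpsb2, the gene of the tryptase mMCP-6, had 15.1, 31.2 and 15.9 CPM in wild type and 14.7, 19.4 and 14.0 CPM in knockout skin. It differed by -0.37 on the log2 scale (SE 0.30, interval -1.08 to 0.35, edgeR adjusted p = 0.350), and the sign turned without wild type replicate 2 (0.05). The intervals of the 4 genes leave room for a fall of more than a log2 unit and for a small rise, so these libraries do not show that the proteases were equal.

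The 4 protease genes stood in similar proportions in all 6 libraries. Cpa3 made up 27.4% to 32.5% of their summed counts over the 6 libraries, Cma1 28.0% to 31.0%, Mcpt4 24.1% to 32.4% and Tpsb2 10.3% to 12.5%. Per 100 Cpa3 counts, Cma1 had 99.2 ± 7.60 counts in wild type and 96.6 ± 5.74 in knockout skin (mean ± SD, n = 3). Tpsb2 had 36.7 ± 2.22 and 40.4 ± 4.58, again within the spread between libraries.

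Among the 15071 tested genes that averaged 1 CPM or more, those whose pattern over the 6 libraries lay closest to that of Cpa3 were Susd1, Usmg5, Pcdhb14, Cma1 and Cd68 (root mean square distances of 0.0666, 0.0766, 0.0776, 0.0815 and 0.0835 on the centred log2 CPM scale). Tpsb2 was at rank 11, Mcpt4 at rank 185 and Kit at rank 1142. The distance is a description over 6 libraries that share the high value of wild type replicate 2.

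The remaining mast cell proteases of a separate list were scarce. Of 7 genes, 2 passed the filter on low counts. Tpsab1, the gene of the tryptase mMCP-7, had 17, 5 and 9 counts in wild type libraries, 29, 62 and 15 counts in knockout libraries, and was called higher (log2 2.18, SE 0.57, edgeR adjusted p = 0.0195). Its call was lost without wild type replicate 2 or 3 (adjusted p = 0.0573 and 0.0524) and without knockout replicate 2 (1.59, adjusted p = 0.058), all by edgeR. Tpsg1, a transmembrane tryptase gene, had 44, 41 and 42 counts in wild type libraries, against 15, 15 and 7 in knockout libraries and fell by 1.35 (SE 0.30, edgeR adjusted p = 0.0109).

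The called tryptase genes thus differed in direction. Ctsg, the cathepsin G gene, had 14 counts over the wild type and 17 over the knockout libraries, and Cma2 had 11 and 8. Mcpt1 and Mcpt2, chymases of mucosal mast cells, were near 0, with 1 count each over the wild type libraries and 0 and 3 over the knockout libraries, and Mcpt9 had 1 and 0. The transcripts of the 10 mast cell genes and Tpsab1 are distinct at the read length: no window of 100 bases in a transcript of Tpsb2 or Tpsab1 occurred in a transcript of another gene, and Mcpt4 shared 1 window of 1009 with Cma2 (GENCODE vM21). No annotated exon of another gene overlapped the exons of the 10 genes there.

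Of Kit and the IgE receptor gene, the latter was called. Kit, which encodes the receptor for stem cell factor, stood at 5.43, 8.16 and 8.07 CPM in wild type and at 6.29, 5.97 and 4.07 CPM in knockout skin. The genotypes overlapped, because wild type replicate 1 lay below 2 of the knockout libraries. Kit differed by -0.40 (SE 0.25, interval -0.98 to 0.18, edgeR adjusted p = 0.216). Of the melanocyte markers, 4 of 6 tested genes were lower and 0 higher (66.7% called, against 45.1% of all tested genes). The 9 listed genes summed to 21.0, 33.8 and 138 CPM in wild type replicates 1, 2 and 3 and to 8.56 to 14.9 CPM in knockout skin. Among them Dct, Tyr and Tyrp1 stood at 59.0, 9.18 and 34.1 CPM in wild type replicate 3. Without that library 2 of the 4 calls were lost, Tyrp1 (-1.02, edgeR adjusted p = 0.141) and Pmel (-1.16, adjusted p = 0.0906), and 1 of the 4, Sox10, held in all 14 alternatives. Sox10 is also on the list of Schwann cell markers. The part of melanocytes in the Kit values was not tested.

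Fcer1a, which encodes the IgE-binding alpha chain of FceRI, was 3.95 times as high in knockout as in wild type skin by the means. It stood at 0.870, 1.90 and 1.11 CPM in wild type (29, 56 and 30 counts) and at 2.93, 8.43 and 3.97 CPM in knockout libraries (68, 199 and 76 counts). Every knockout library lay above every wild type library, with knockout replicate 2 far above the rest. That library also had the highest summed level of 5 haemoglobin genes, 1528 CPM against 778 and 847 CPM in the other knockout libraries, while wild type skin had 341 to 599 CPM. It had the lowest adipocyte sum too, 99.8 CPM, and the part of blood or of the tissue sampled in the result was not tested. Fcer1a rose by 1.98 (SE 0.48, edgeR adjusted p = 0.0154), and by 1.43 without knockout replicate 2 (adjusted p = 0.0369).

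The other chains of FceRI were not called. Ms4a2, the beta chain gene, had 3.69, 6.90 and 3.89 CPM in wild type and 1.90, 3.85 and 3.39 CPM in knockout skin (log2 -0.66, SE 0.36, edgeR adjusted p = 0.17). Fcer1g, the gamma chain gene shared with other Fc receptors of leukocytes, stood at 77.8 ± 25.3 and 53.1 ± 7.16 CPM (log2 -0.55, edgeR adjusted p = 0.0892), and scaled by library totals alone it was called lower (-0.70, adjusted p = 0.025).

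The basophil protease genes Mcpt8 and Prss34 had more counts in every knockout library than in any wild type library. The other basophil markers were not called. Mcpt8, which encodes the basophil protease mMCP-8, had 0, 1 and 1 counts in wild type libraries, against 19, 20 and 25 in knockout libraries (log2 5.18, SE 0.59, edgeR adjusted p = 0.00131; ratio of summed counts after scaling 43.6, 95% interval 11.6 to 367 for counting error only). Prss34, the gene of the basophil protease mMCP-11, had 4, 2 and 4 counts in wild type libraries, against 8, 10 and 10 in knockout libraries. It was too low to test, and its scaled ratio of summed counts was 3.81 (95% interval 1.80 to 8.79, counting error only). Of the 3 tested genes of the list of 4, Mcpt8 was the only member called (33.3%, against 45.1% of all tested genes). Il3ra (-0.54) and Cd200r3 (-0.31) had negative fold changes and were not called. Cd200r3, also on the list of mast cell lineage and surface genes, turned to 0.16 without wild type replicate 2. The list summed to 4.85 to 8.77 CPM in wild type and 5.38 to 6.29 CPM in knockout skin. Of 9 dendritic and Langerhans cell markers, 0 were higher and 6 lower (66.7% called, against 45.1% of all tested genes). Their median log2 fold change was -1.48. The list summed to 148 to 187 CPM in wild type and 129 to 161 CPM in knockout skin. Within these sums Epcam, which was not called, had means of 112 and 121 CPM, and Cd207 fell from 16.5 to 2.27 CPM. The part of basophils or of dendritic and Langerhans cells in the Fcer1a result was not tested.

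Both receptor genes of the Mrgprb family among the 10 fell. Mrgprb2, which encodes the receptor through which basic secretagogues such as substance P activate mouse connective tissue mast cells, stood at 6.99, 6.29 and 6.66 CPM in wild type and at 2.03, 3.56 and 2.30 CPM in knockout libraries. The 3 wild type libraries lay close together and above every knockout library. Knockout skin held 39.5% of the wild type level, and Mrgprb2 fell by 1.33 (SE 0.25, edgeR adjusted p = 0.00602).

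Mrgprb3, a relative of Mrgprb2 in the same receptor family, was nearly absent from knockout skin. It had 369, 325 and 301 counts in wild type libraries (11.07, 11.04 and 11.14 CPM) and 0, 19 and 5 counts in knockout libraries (0, 0.805 and 0.261 CPM). The wild type libraries lay close together even though wild type replicate 2 had the highest Cpa3 level. Their spread was smaller than the counting error of such counts, so it does not measure how well replicates agree. Knockout replicate 1 had no read at a depth where 3 counts stand at 0.129 CPM. Over the summed counts, 995 and 24, the scaled level was 30.5-fold lower in the knockout (95% interval 20.4 to 47.8, counting error only).

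In the fit Mrgprb3 fell by 4.92 (SE 0.71, edgeR adjusted p = 0.00264). It stood at -6.46 without knockout replicate 2, the library with 19 of the 24 counts, and at -4.31 without knockout replicate 1, with the call kept both times. In wild type skin Mrgprb3 had the higher level of the pair (11.0 ± 0.0509 CPM per kilobase of exon, against 3.2 ± 0.169 for Mrgprb2), and in knockout skin the lower (0.352 ± 0.407 against 1.26 ± 0.394).

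Mrgprb1, another family member, was not called. It had 8.46, 17.2 and 10.6 CPM in wild type and 8.92, 16.2 and 11.9 CPM in knockout skin, with the genotypes fully interleaved (log2 0.03, SE 0.32, interval -0.71 to 0.78, edgeR adjusted p = 0.939), and its sign turned with library totals alone (-0.10), with upper-quartile factors (-0.05), and when replicate 1 (-0.15) or 3 (-0.04) of the wild type or replicate 2 of the knockout (-0.19) was left out. Whether Mrgprb1 differs from Mrgprb2 or Mrgprb3 in its change was not tested. Of the 16 further Mrgpr genes listed, 7 passed the filter, 2 rose and 1 fell (42.9% called, close to the 45.1% of all tested genes). The 2 that rose were Mrgpra2a, with 0, 0 and 2 counts in wild type libraries, against 20, 10 and 18 in knockout libraries, and Mrgpra2b, with 2, 3 and 0 and 22, 19 and 14 counts. Mrgprh fell (53 counts over wild type and 9 over knockout libraries, log2 -2.08, edgeR adjusted p = 0.0187), a call lost without knockout replicate 1 or 3 (-1.82 and -2.16). Mrgpra3, Mrgpra6, Mrgpra9, Mrgprb4 and Mrgprb5 had 0 counts in all 6 libraries.

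**Figure D2:**
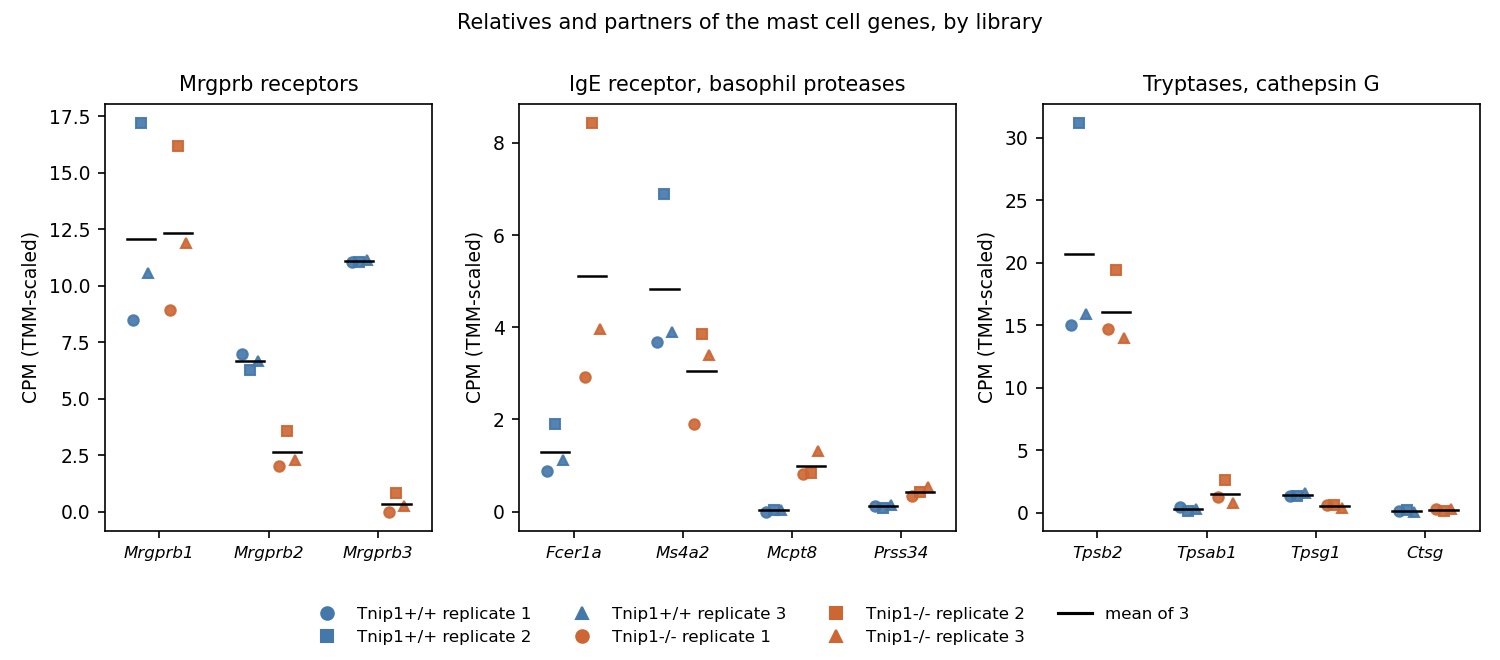
Each point is the level of a gene in a library in TMM-scaled CPM on a linear axis, with colours for genotype, symbols for replicate numbers and a black bar for the mean of 3. Mrgprb1 overlaps between genotypes where Mrgprb2 and Mrgprb3 do not, Fcer1a and Mcpt8 are higher in all 3 knockout libraries, and Tpsab1 and Tpsg1 are low and differ in direction.

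Both genes of amine synthesis rose. Hdc, which encodes histidine decarboxylase, the enzyme that makes histamine, stood at 6.09, 10.9 and 7.37 CPM in wild type and at 34.1, 29.5 and 26.9 CPM in knockout libraries. The lowest knockout library was above the highest wild type library by more than 2 times. Hdc rose by 1.89 (SE 0.23, 95% interval 1.35 to 2.44, edgeR adjusted p = 0.00157), a ratio of means of 3.71.

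Tph1, the gene of the tryptophan hydroxylase that limits serotonin synthesis outside the brain, had 36, 46 and 18 counts in wild type (1.08, 1.56 and 0.666 CPM) and 122, 172 and 66 counts in knockout libraries (5.26, 7.29 and 3.45 CPM). The groups did not overlap, and knockout replicate 2, the library low in adipocyte and high in haemoglobin genes, was the highest. Tph1 rose by 2.27 (SE 0.40, interval 1.32 to 3.21, edgeR adjusted p = 0.00506), a ratio of means of 4.83.

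The tested neutrophil markers rose in the same libraries as Hdc. Of 10 listed genes, 7 were tested and all 7 were higher, where 45.1% of all tested genes were called in either direction. The list summed to 11.7 to 19.4 CPM in wild type and 97.9 to 174 CPM in knockout skin. The untested genes were mixed. Ly6g, a surface marker of neutrophils, had 0 counts in the 3 wild type libraries and 9, 0 and 4 in knockout libraries. Mpo had 5, 1 and 0 counts in wild type libraries, against 11, 8 and 0 in the knockout. Elane had 1, 1 and 4, against 2, 0 and 0. The part of neutrophils or basophils in the Hdc and Tph1 results was not tested.

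The genes that move, sense and break down these amines were mixed. Of 18 listed genes, 11 were tested, 1 rose and 2 fell (27.3% called, against 45.1% of all tested genes), with a median log2 fold change of -0.11. Slc18a2, the vesicular transporter that loads amines into granules, had 1.71, 2.89 and 1.81 CPM in wild type and 1.29, 1.65 and 1.36 CPM in knockout skin (log2 -0.57, SE 0.29, edgeR adjusted p = 0.145). Ddc, which decarboxylates the product of TPH1 to serotonin, had 25 and 18 counts over the 2 genotypes and was not tested.

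Hnmt, which inactivates histamine by methylation, stood at 10.6 ± 5.01 and 4.80 ± 0.954 CPM and was called lower (-1.14, edgeR adjusted p = 0.0329), a call lost without wild type replicate 2 (-0.69) or without knockout replicate 1, 2 or 3 (-1.12, -0.99 and -1.29), and by limma voom (-1.06, adjusted p = 0.056). Maob, a monoamine oxidase gene, fell by 1.47 (SE 0.16, edgeR adjusted p = 0.00115), and its relative Maoa rose by 0.67 (SE 0.12, edgeR adjusted p = 0.0054).

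**Figure D3:**
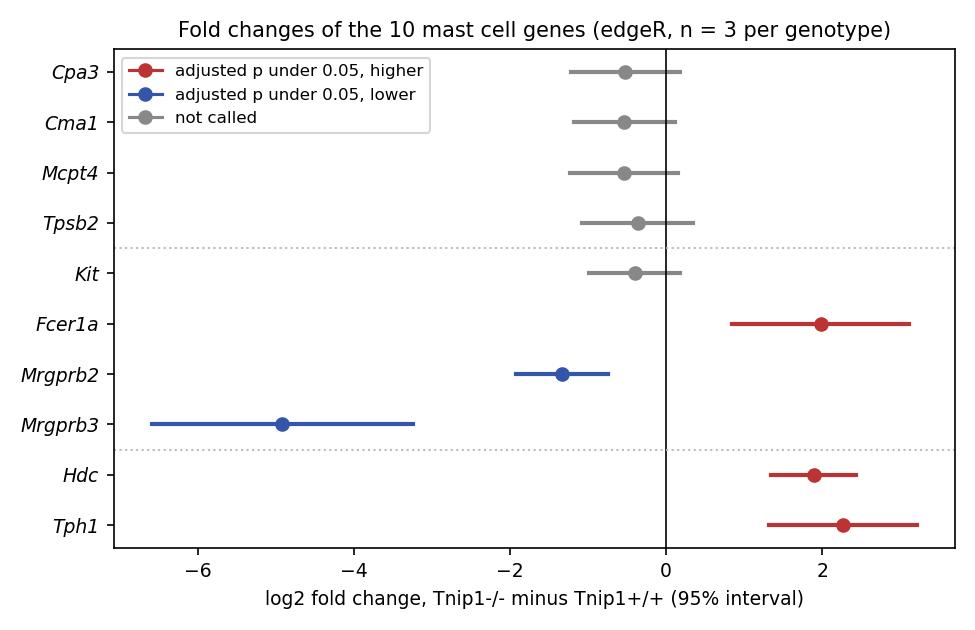
Points are log2 fold changes, knockout minus wild type, with 95% intervals from the edgeR fit (n = 3 per genotype), and dotted lines separate proteases, receptors and amine synthesis. The intervals of the 4 proteases and Kit include 0, and those of Fcer1a, Hdc and Tph1 lie above it and those of Mrgprb2 and Mrgprb3 below it.

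Set against Cpa3 in the same library, a ratio that no library scaling can change, 4 genes did not overlap between genotypes and 5 did. Hdc had 15.9, 12.5 and 16.3 counts per 100 Cpa3 counts in wild type libraries, against 86.7, 69.3 and 73.0 in the knockout. Fcer1a had 2.27, 2.18 and 2.46 in the wild type libraries, against 7.46, 19.8 and 10.8 in the knockout. Tph1 went from 2.03 ± 0.701 to 13.3 ± 3.88 on this scale, with no overlap.

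Kit stood at 13.8 ± 4.26 counts per 100 Cpa3 counts in wild type and 13.7 ± 2.49 in knockout skin. Mrgprb3 fell from 28.9, 12.7 and 24.7 to 0, 1.89 and 0.709. Mrgprb2 overlapped on this scale (18.2, 7.22 and 14.8 in wild type, against 5.15, 8.36 and 6.24 in the knockout), with wild type replicate 2, the library highest in Cpa3, at the lowest wild type ratio. With the summed counts of the 4 proteases as library size in the edgeR fit, a scaling chosen after the data were seen, Mrgprb2 lost its call (-0.99, adjusted p = 0.131), Kit stood at 0.02, and Fcer1a (2.45), Hdc (2.39), Tph1 (2.72) and Mrgprb3 (-4.63) kept theirs.

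**Figure D4:**
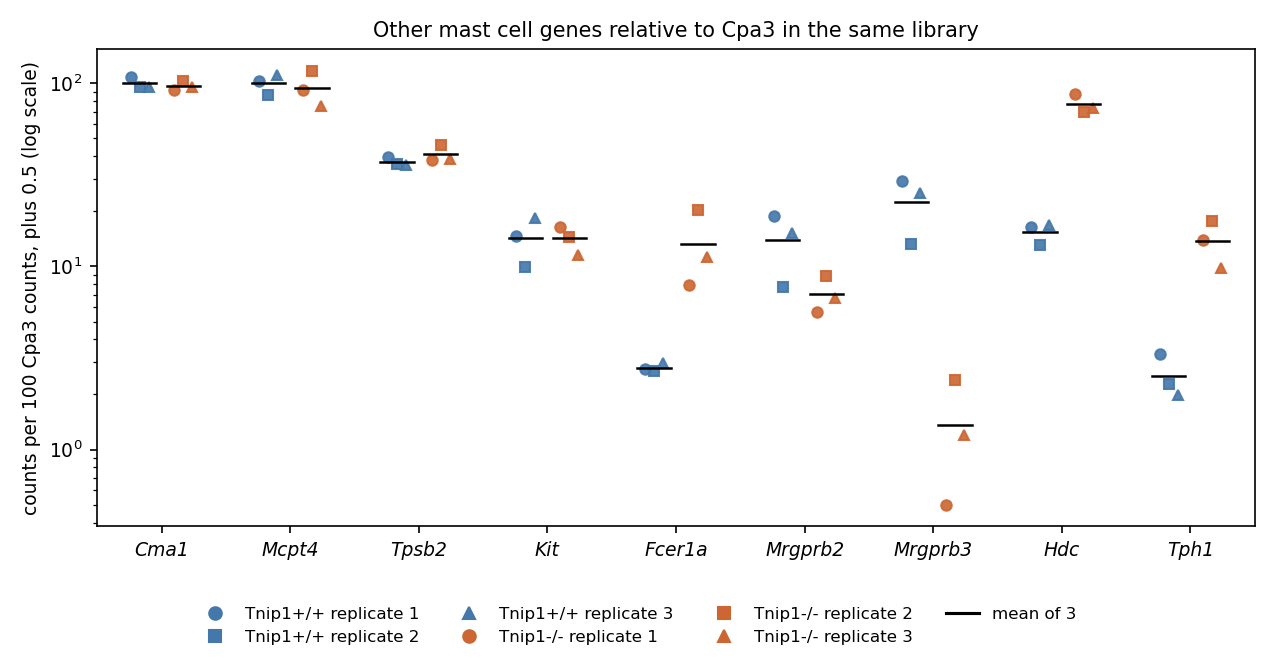
Each point is a gene's count per 100 counts of Cpa3 in the same library, with 0.5 added so that the 0 of Mrgprb3 in knockout replicate 1 can be drawn on the log axis; the black bar is the mean of 3. Cma1, Mcpt4, Tpsb2, Kit and Mrgprb2 overlap between genotypes, and Fcer1a, Mrgprb3, Hdc and Tph1 do not.

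Per kilobase of exon the genes held a wide range of levels. In wild type skin Cma1 (50.9 ± 21.1 CPM per kilobase), Mcpt4 (49.3 ± 16.6) and Cpa3 (37.5 ± 17.4) led and did not differ from each other beyond their spread. Tpsb2 (13.0 ± 5.69) and Mrgprb3 (11.0 ± 0.0509) followed, then Mrgprb2, then Fcer1a (1.30 ± 0.542) and Hdc (1.27 ± 0.391), Kit (0.810 ± 0.174) and Tph1 (0.179 ± 0.0727). In knockout skin the 3 leading genes were the same, and Fcer1a (5.12 ± 2.93) and Hdc (4.72 ± 0.570) stood above Mrgprb2 and next to Tpsb2 (10.1 ± 1.85).

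In the 7 lists of wider mast cell pathways, 27 of 74 tested genes were called (36.5%, against 45.1% of all tested genes), so the counts that follow describe the lists and do not set them apart. In the FceRI and KIT signalling list, most of whose members are used by many leukocytes, 4 of 20 rose and 4 fell, with a median of -0.02. Pik3cd (0.66), Plcg2 (0.76), Vav1 (0.70) and Lat2 (0.53) rose, and the kinase gene Fyn (-0.86), the adaptor gene Gab2 (-0.84), Prkcb (-0.52) and Stim1 (-0.35) fell. Lat2 kept its call in 5 of the 14 alternatives, Stim1 in 7, Vav1 in 9 and Prkcb in 12. The number higher was 2 when replicate 1 or 3 of either genotype was left out, 6 without wild type replicate 2 and 5 by DESeq2. The number lower was 2 without knockout replicate 3 and 6 with library totals alone.

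In the granule and lipid mediator list, 2 of 14 rose and 1 fell. The granule-docking gene Rab27b rose by 0.87 and its relative Rab27a fell by 0.65. Alox5ap, which serves leukotriene synthesis, rose by 0.68, a call lost without knockout replicate 1 (0.63). Srgn, the gene of the proteoglycan core that holds granule proteases, stood at 45.8, 139 and 45.5 CPM in wild type and 88.3, 67.3 and 72.5 CPM in knockout skin (-0.01), and without wild type replicate 2 it passed as higher (0.73, edgeR adjusted p = 0.0129). Hpgds, the prostaglandin D synthase gene, stood at -0.22, and at 0.01 without wild type replicate 2. Ltc4s, the leukotriene C4 synthase gene, stood at -0.72 (edgeR adjusted p = 0.0609) and passed as lower in 5 of the 14 alternatives: without knockout replicate 1 (-1.01, adjusted p = 0.023), with library totals alone (-0.88, adjusted p = 0.0231) or upper-quartile factors (-0.81, adjusted p = 0.0396), and by DESeq2 (adjusted p = 0.0419) and limma voom (adjusted p = 0.0461).

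Lineage and surface genes were called 2 higher and 3 lower of 11 tested. Mitf, a transcription factor gene of mast cells, melanocytes and other cells, fell from 59.7 ± 8.83 to 30.7 ± 3.32 CPM. Enpp3, a surface ectoenzyme gene of mast cells and basophils, fell by 1.60, and the adenosine receptor gene Adora3 fell by 1.35, a call that ended when replicate 2 or 3 of the wild type (-1.0 and -1.34) or of the knockout (-1.19 and -1.24) was left out. Csf2rb (0.84) and Csf2rb2 (0.74), the shared receptor chain of IL-3, IL-5 and GM-CSF and its relative, rose. Csf2rb2 lost its call without knockout replicate 1 (0.62) or 3 (0.75). Gata2, a transcription factor gene needed for the mast cell lineage, stood at 2.21 ± 0.529 and 1.66 ± 0.435 CPM (-0.41, SE 0.30, edgeR adjusted p = 0.286).

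Of the ligands that feed or activate mast cells, 9 of 15 were tested, 3 rose and 0 fell. Il33, an alarmin that acts on mast cells through ST2, stood at 57.2, 70.0 and 45.8 CPM in wild type and 469, 212 and 246 CPM in knockout skin. Camp, the cathelicidin gene, had 0, 1 and 1 counts in wild type libraries, against 20, 11 and 8 in knockout libraries. Tslp rose by 1.92 with overlapping groups, and the call did not hold when replicate 1 or 3 of the wild type (1.69 and 1.83) or replicate 2 or 3 of the knockout (2.01 and 1.26) was left out, or by limma voom (1.7, adjusted p = 0.0658). Kitl, the stem cell factor gene, stood at 55.7 ± 16.5 and 36.7 ± 4.14 CPM (-0.60, edgeR adjusted p = 0.0687), and it passed as lower in 4 of the 14 alternatives: without wild type replicate 1 (-0.81, adjusted p = 0.00992), with library totals alone (-0.75, adjusted p = 0.0273) or upper-quartile factors (-0.69, adjusted p = 0.0479), and by DESeq2 (adjusted p = 0.0497). Il3 had 0 counts in every library.

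GATA factors such as GATA2 bind a short core in front of many mast cell genes, and the promoters of 5 genes are shown to set a protease that was not called, receptors that fell and rose, and an enzyme gene that rose side by side. Each sequence is the 250 bases before the gene's start on its own strand, from RefSeq on GRCm38.p6 (mm9 is the build in the submitters' processing notes for the counts), with the GATA core in capitals. All 5 genes lie on the minus strand, and the windows are chr3:20242182-20242431 for Cpa3, chr14:56062311-56062560 for Mcpt4, chr1:173227230-173227479 for Fcer1a, chr7:48558087-48558336 for Mrgprb2 and chr2:126618679-126618928 for Hdc. The letters searched were AGATAA, its variant that ends in G (AGATAG), its variant that starts with T (TGATAA) and the variant with both changes (TGATAG), on both strands, in 300 bases from 250 before to 50 after the start.
Cpa3: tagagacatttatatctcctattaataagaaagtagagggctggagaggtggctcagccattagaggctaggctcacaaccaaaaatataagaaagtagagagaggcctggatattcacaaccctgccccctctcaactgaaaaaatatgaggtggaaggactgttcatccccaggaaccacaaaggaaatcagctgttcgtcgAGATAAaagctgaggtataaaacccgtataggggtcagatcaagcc
Mcpt4: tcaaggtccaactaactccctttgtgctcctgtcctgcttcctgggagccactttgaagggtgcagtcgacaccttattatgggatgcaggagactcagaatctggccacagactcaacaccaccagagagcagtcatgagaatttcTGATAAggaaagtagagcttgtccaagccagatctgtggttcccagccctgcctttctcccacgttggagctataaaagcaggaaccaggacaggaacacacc
Fcer1a: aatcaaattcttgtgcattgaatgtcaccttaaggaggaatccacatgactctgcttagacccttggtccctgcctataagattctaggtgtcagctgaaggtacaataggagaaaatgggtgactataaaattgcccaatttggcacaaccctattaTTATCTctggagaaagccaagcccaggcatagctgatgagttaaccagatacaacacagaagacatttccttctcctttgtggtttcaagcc
Mrgprb2: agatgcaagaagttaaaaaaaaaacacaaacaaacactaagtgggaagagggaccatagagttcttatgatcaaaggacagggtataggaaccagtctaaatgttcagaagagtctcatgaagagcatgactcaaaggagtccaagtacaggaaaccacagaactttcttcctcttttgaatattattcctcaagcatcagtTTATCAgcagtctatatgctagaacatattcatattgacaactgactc
Hdc: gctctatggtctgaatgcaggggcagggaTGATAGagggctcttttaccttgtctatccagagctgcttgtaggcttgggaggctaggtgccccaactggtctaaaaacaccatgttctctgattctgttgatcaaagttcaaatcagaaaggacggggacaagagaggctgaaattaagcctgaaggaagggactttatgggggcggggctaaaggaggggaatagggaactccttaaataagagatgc
Promoters were found for 8 of the 10 genes, and not for Tpsb2 and Mrgprb3. Counted by gene, 7 of the 8 held a match in at least 1 promoter, where Kit and Tph1 had 2 promoters each. Counted by promoter, 29.8% of all 32851 promoters of that length held a match. The first base of the core lay at -46 in Cpa3, -103 in Mcpt4, -92 in Fcer1a, -48 in Mrgprb2 and -221 in Hdc, counted from the start, and Kit held none in either of its 2 promoters. The core thus stood in promoters of genes that rose, fell or were not called. CATGTG or CACGTG, E-box letters that MITF can bind, were found on either strand in 1 of the 8 genes (Fcer1a), apart from its GATA core, and in 20.4% of all promoters. The NF-kB consensus kappaB was in 0 of the 8 and in 4.51% of all promoters. A match is a run of letters and no evidence of binding.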

How the data were processed

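Total RNA of snap-frozen skin biopsies was depleted of ribosomal RNA, made into stranded libraries and sequenced as paired reads of 100 bases, per the labels' protocols. The authors deposited whole-number read counts per gene symbol for each library; the submitters' processing notes name CASAVA 1.7, STAR, BWA, HTSeq, limma, R 3.2.3 and mm9. The strand setting and gene annotation are not given in the sources used here. The 5 summary lines of each file, 26.7% to 30.3% of its counts, were left out.

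Counts were fitted in edgeR 4.0.16 (R 4.3.3) with TMM factors, its default expression filter (minimum count 10), the quasi-likelihood test and Benjamini-Hochberg adjustment over 16691 genes, with a threshold of 0.05. SEs are the fold change over the square root of the F statistic. The fit was tested on simulated data. Levels are TMM-scaled CPM; levels per kilobase use exon lengths of GENCODE vM21. Intervals from counts cover counting error only. The 3 mice of a genotype are separate animals. Groups came from the genotype labels. An exact permutation test of 3 against 3 cannot go below p = 0.1 and was not used.

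The mast cell genes and the gene lists were chosen with earlier results of these data known. Named genes are Tnip1, the 10 genes, up to 4 called genes per direction with the smallest p in each pathway list, all genes of the short list of other mast cell proteases, preset mast cell and marker genes, and the 5 genes nearest Cpa3. Fcer1g, Ddc, Ly6g, Il3, Pmel, Cd28, Csf1r, Ighe, Htr1b, Il13 and the Mrgpr genes at 0 were named after their values were seen. So were Mpo, Elane and Il4. Other marker genes were preset as list members only, not to be named singly. These were Col1a1, Col3a1, Sox10, Epcam, Cd207, Il3ra, Cd200r3, Lyz2, Mrc1, Emr1, Cd68, Cd163, Fcgr1, C1qa, C1qb and C1qc. The alternatives were DESeq2 1.42.0, limma 3.58.1 voom, other scalings, filters and dispersion settings, a replicate block and leaving out each library. The ratios to Cpa3 and the scaling to the proteases were added after the data were seen. Motifs and shared windows were searched in RefSeq and GENCODE sequences.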

Additional observations from a re-analysis of the deposited data

How the results depend on the processing

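Each of the 10 genes kept its side of the threshold under the 14 alternatives, and the sign changed once, for Tpsb2 without wild type replicate 2 (0.0534, adjusted p = 0.824, edgeR). Leaving out each library in turn gave log2 fold changes of -0.73 to -0.08 for Cpa3, -0.69 to -0.14 for Cma1, -0.76 to -0.24 for Mcpt4, -0.53 to 0.05 for Tpsb2, -0.56 to -0.22 for Kit, 1.43 to 2.37 for Fcer1a, -1.60 to -1.17 for Mrgprb2, -6.46 to -4.31 for Mrgprb3, 1.74 to 2.16 for Hdc and 2.0 to 2.59 for Tph1. With the 4 proteases as library size, chosen after seeing the data, Kit turned to 0.0237 (adjusted p = 0.98) and Mrgprb2 stood at -0.99 (adjusted p = 0.131), both by edgeR; the cause was not tested. Same-numbered libraries did not deviate together (r = 0.0115, -0.209 and 0.193 across genes, and not every library was closest to its own number), so the numbers were not used as pairs; a replicate block gave 6465 called genes in place of 7525, with Fcer1a at 1.92, Mrgprb2 at -1.37 and no call changed among the 10. The block also ended the calls of 6 of the 27 called pathway genes by edgeR, Tpsab1 (2.08, adjusted p = 0.0521), Lat2 (0.54, 0.0664), Vav1 (0.71, 0.0539), Stim1 (-0.35, 0.065), Adora3 (-1.29, 0.0706) and Hnmt (-1.05, 0.0729), and of 12 of the 61 called marker genes. Library totals alone moved the median of all genes from -0.04 to -0.19 and the share of calls that were higher from 49.6% to 34.1%; upper-quartile factors gave 42.0%. Of 196 counts of called genes in the 7 pathway lists under the alternatives, 36 moved by more than 1.5 times, by at most 2 genes each. Of the 61 calls in the 13 marker lists, 35 held in every alternative, and among the 26 others Cd28, the T cell gene called higher, held in 4 of 14 and Csf1r, a macrophage gene, in 5. With 3 libraries a genotype, levels under 3 counts (0.0900 to 0.157 CPM) and fold changes inside the printed intervals were not resolved.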

Other observations

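Some genes around the mast cell set were too low for the test and are given as counts, chosen after their values were seen. Ighe, the constant region of IgE, had 1 count in each wild type library and 10, 8 and 6 counts in knockout libraries, a scaled ratio of 10.9 (95% interval 3.31 to 56.5, counting error only). Htr1b, a serotonin receptor gene, had 1, 5 and 0 counts in wild type libraries, against 35, 8 and 16 in knockout libraries, a ratio of 13.4 (interval 5.80 to 37.9). Il13, a cytokine gene that mast cells, basophils and T cells can transcribe, had 0, 8 and 3 counts in wild type libraries, against 0, 0 and 1 in knockout libraries. Its ratio was 0.124 (interval 0.00287 to 0.851), and the genotypes overlapped. Il4, a cytokine gene of the same list, had 1, 9 and 6 counts, against 3, 7 and 0 (ratio 0.851, interval 0.345 to 1.99).

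Further marker lists of other cells gave these counts by edgeR, beside 45.1% of all tested genes called. Of 10 macrophage genes, 3 were higher and 0 lower, with sums of 1506 to 2215 CPM in wild type and 2234 to 2830 CPM in knockout skin. The median log2 fold change of this list was -0.19. By the means, Lyz2 rose from 415 to 920 CPM and Mrc1 from 251 to 533 CPM. Csf1r and Emr1 also had positive fold changes, whereas those of Cd68, Cd163, Fcgr1, C1qa, C1qb and C1qc were negative and not called. Of 8 T cell genes, 1 was higher (Cd28, in 4 of 14 alternatives) and 3 lower (24.4 to 38.3 and 15.8 to 26.0 CPM). Of 8 endothelial genes, 2 were higher and 3 lower (228 to 393 and 226 to 271 CPM), and of 7 Schwann cell genes 0 were higher and 6 lower (245 to 320 and 137 to 178 CPM). Of 5 haemoglobin genes, 4 were higher and 0 lower.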
